A study of Mus musculus with 4 samples.

Results

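Messenger RNAs of 6 STAT transcription factors, Stat2, Stat3, Stat4, Stat5a, Stat5b and Stat6, were measured in activated mouse regulatory T cells. All array probes whose platform annotation gave one of these 6 symbols were taken, which came to 12 of 25697 probes, and to 6 of 16593 annotated genes. The cells carried a green fluorescent reporter of Foxp3, the lineage factor of regulatory T cells, and had been sorted from spleens of C57Bl/6 mice aged 8 to 12 weeks. All cultures received an antibody to CD3 overnight. The isotype group also received rat IgG, and the OX86 group received OX86, an antibody agonist of OX40, a costimulatory receptor on T cells. Each group had 2 Illumina bead arrays, named here isotype 1, isotype 2, OX86 1 and OX86 2. The labels number the arrays but do not tell if each had its own culture or mouse. All p-values therefore rest on a spread between arrays that may be technical, and whether cells were pooled from several mice is not given in the sources used here.

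STAT proteins carry signals from cytokine receptors to the nucleus. A cytokine brings receptor chains together, the bound JAK kinases phosphorylate the receptor and then a STAT, and the STAT dimerises through its SH2 domain and binds DNA. The family divides the work by cytokine: Stat5a and Stat5b answer interleukin-2 and are needed for Foxp3 expression, Stat3 answers interleukin-6 and interleukin-10, Stat4 interleukin-12 and Stat6 interleukin-4. Stat2 works in a complex with Irf9 downstream of type I interferon. STAT dimers bind palindromes with the letters TTCNNNGAA, called GAS elements, Stat6 prefers the wider TTCNNNNGAA, and the Stat2 complex binds the interferon-stimulated response element, whose core is searched here as GAAANNGAAA. STAT proteins are switched on by phosphorylation, which an RNA array does not measure.

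All 6 genes have a place in the mouse assembly GRCm38.p6, as given by RefSeq. Stat5b, Stat5a and Stat3 are neighbours, with no other protein-coding gene starting between them, at chr11:100780731-100859004, chr11:100859351-100885169 and chr11:100886806-100939594. Stat6 lies at chr10:127642955-127660987, Stat2 at chr10:128270498-128292853 and Stat4 at chr1:51987106-52107189. In windows from 250 bases before to 30 bases after each annotated start, both strands were searched for the 3 motifs. Among 32851 such windows of all genes, 7.83% held TTCNNNGAA, 6.50% held TTCNNNNGAA and 3.28% held GAAANNGAAA. Counted by gene, since some genes have several windows, the shares were 9.04%, 7.46% and 3.80% of 27025 genes. Of the 6 STAT genes, 0 had TTCNNNGAA in a window, 1 (Stat2) had TTCNNNNGAA, and 2 (Stat2 and Stat4) had the GAAANNGAAA core.

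The windows of Stat2 and of the inner Stat4 start are printed as the family members with a match. Those of Isg15, Cish and Socs3 are printed as targets with a match whose RNA is described further on. All printed windows are from RefSeq, GRCm38.p6, 5′ to 3′ on the strand of the gene, with matches in capitals.
Stat2, chr10:128270248-128270527, plus strand: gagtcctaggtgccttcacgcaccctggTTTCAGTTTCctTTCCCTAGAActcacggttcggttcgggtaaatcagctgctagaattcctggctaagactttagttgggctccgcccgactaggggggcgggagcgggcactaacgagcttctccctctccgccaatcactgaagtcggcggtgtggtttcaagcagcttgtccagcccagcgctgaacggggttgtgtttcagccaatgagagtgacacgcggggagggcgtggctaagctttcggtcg
Stat4, chr1:52007990-52008269, plus strand: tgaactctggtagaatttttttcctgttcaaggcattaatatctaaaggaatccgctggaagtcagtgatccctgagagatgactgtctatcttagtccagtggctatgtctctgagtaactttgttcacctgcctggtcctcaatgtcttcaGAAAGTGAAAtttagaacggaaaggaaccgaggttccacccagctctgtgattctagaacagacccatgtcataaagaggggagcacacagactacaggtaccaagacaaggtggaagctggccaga
Isg15, chr4:156200789-156201068, minus strand: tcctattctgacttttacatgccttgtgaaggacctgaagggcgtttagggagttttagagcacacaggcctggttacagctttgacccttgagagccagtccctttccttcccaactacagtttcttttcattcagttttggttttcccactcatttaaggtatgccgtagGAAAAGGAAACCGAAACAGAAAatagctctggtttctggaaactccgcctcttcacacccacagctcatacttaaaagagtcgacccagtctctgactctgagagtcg
Cish, chr9:107296409-107296688, plus strand: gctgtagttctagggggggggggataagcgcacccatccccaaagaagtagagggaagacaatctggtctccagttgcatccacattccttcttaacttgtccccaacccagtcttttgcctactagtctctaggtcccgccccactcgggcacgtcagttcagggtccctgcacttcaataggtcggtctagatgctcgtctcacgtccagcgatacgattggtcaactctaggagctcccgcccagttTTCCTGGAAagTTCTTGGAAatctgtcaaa
Socs3, chr11:117969337-117969616, minus strand: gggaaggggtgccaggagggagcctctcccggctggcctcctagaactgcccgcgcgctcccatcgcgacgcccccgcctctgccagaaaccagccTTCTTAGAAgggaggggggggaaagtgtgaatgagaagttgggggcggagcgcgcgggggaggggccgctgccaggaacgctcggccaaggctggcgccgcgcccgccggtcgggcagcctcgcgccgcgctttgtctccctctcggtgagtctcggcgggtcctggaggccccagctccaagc
In the Stat2 window the capitals mark TTTCAGTTTC, the response element core read on the other strand, and TTCCCTAGAA, the wider palindrome, set close together. Isg15 has 3 overlapping cores, GAAAAGGAAA, GAAACCGAAA and GAAACAGAAA. Cish has 2 GAS palindromes, TTCCTGGAA and TTCTTGGAA, and Socs3 has 1, TTCTTAGAA. Many listed targets had no match. Among those with a window, TTCNNNGAA was found in 2 of 7 Stat5, 2 of 5 Stat3, 3 of 6 Stat4 and 0 of 4 Stat6 targets. The wider TTCNNNNGAA was found in 0 of the 4 Stat6 targets. A match is a description of the letters and not a measured binding site.

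Signals were corrected for background, quantile-normalized and put on a log2 scale, and a probe was called detected where its deposited detection p was under 0.05. Over the whole array, 11800 to 13682 probes were detected on an array. Isotype 2 had the fewest and stood apart: its correlations with the other arrays over tested probes were 0.968 to 0.972, while the other pairs of arrays reached 0.981 to 0.985. All 9 listed regulatory T-cell genes were detected, with Foxp3 at 12.71 to 12.95 and Ctla4 at 13.50 to 13.76 on the log2 scale. Cd4 was dimmer, at 8.72 to 9.14, and the signal counted for Il2ra is uncertain, as described further on. Of other cell types, 3 of 6 B-cell, 0 of 6 myeloid, 1 of 4 NK and CD8 T-cell and 1 of 4 erythroid markers were tested, and Cd8a, Ncr1, Pax5, Itgam and Itgax were not detected on any array. The brightest of these markers, the haemoglobin gene Hba-a1 and the CD8 chain gene Cd8b1, read 9.14 to 10.69 and 9.54 to 9.79. Of the same lists, Klrb1c and Alas2 were not detected on any array either. The Cd4 probe was dimmer than the Cd8b1 probe on every array. Whether cells of other types were present was not tested. A lower signal from a population of cells cannot tell fewer expressing cells from less RNA per cell.

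Of the 12 STAT probes, 9 were detected on all 4 arrays and entered the test, for which detection on at least 2 arrays was required. They covered Stat2, Stat3, Stat4, Stat5a and Stat6. Stat5b had 1 probe, which was not detected on any array. The other probes left out were 1 of 3 for Stat4 and 1 of 2 for Stat6. By brightness the 9 tested probes lay in the upper part of the range. The share of all 25697 probes with a lower signal, as a mean over the 4 arrays, was 97.8% for the brightest Stat3 probe, 96.7% for Stat4, 88.1% for Stat5a, 79.7% for Stat6 and 72.1% for Stat2, and 23.5% for Stat5b. Probes bind with different efficiency, so this order is one of probe brightness and not of transcripts. The 3 Stat3 probes alone spanned 2.76 on the log2 scale and the 2 Stat5a probes 1.68.

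**Figure D1:**
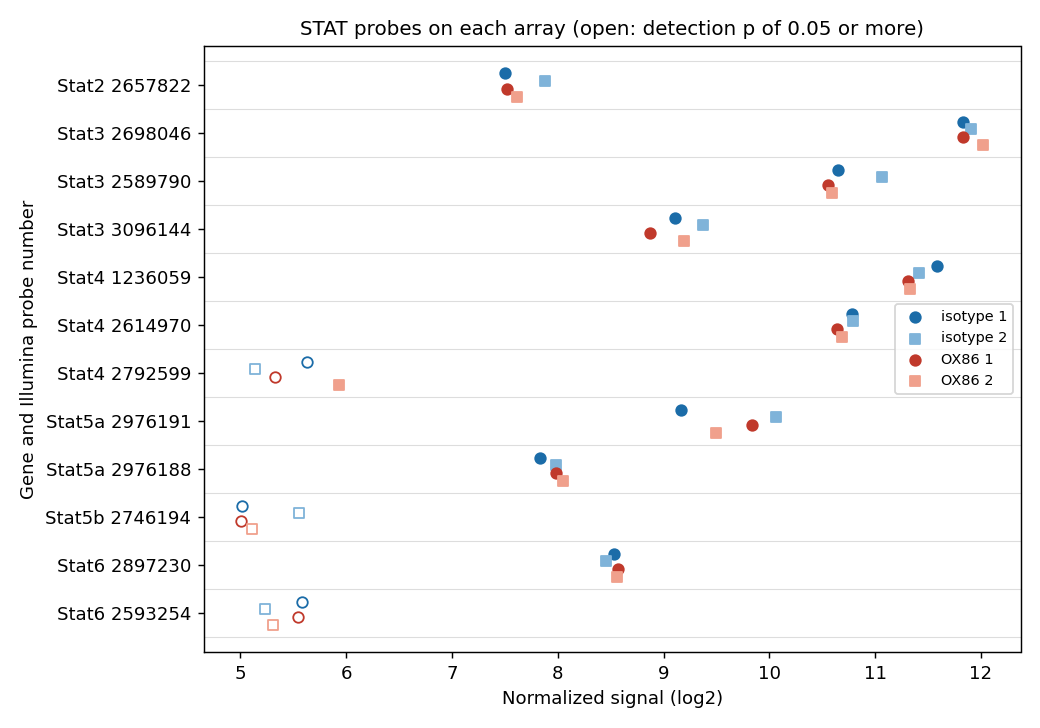
Normalized log2 signal (horizontal axis) of each of the 12 STAT probes (rows) on the 4 arrays, with blue points for isotype, red points for OX86 and open points where the probe was not detected. Colours mix within most rows. The 2 bright Stat4 probes and the Stat3 probe ILMN_2589790 have both red points to the left of both blue ones. The Stat6 probe ILMN_2897230 has them to the right, and the Stat5b row holds open points only.

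The comparison asked whether an OX40 agonist alters STAT transcripts in activated cells. By limma, with Benjamini-Hochberg adjustment over 13338 probes and a threshold of 0.05, 0 of the 9 tested STAT probes passed, where 0% of all tested probes passed. At an unadjusted p under 0.05 there were also 0 STAT probes, against 3.33% of all tested probes, and the smallest adjusted p among the 9 was 0.9999. In mean, 4 of the 9 were higher with OX86 and 5 lower, with log2 changes from -0.28 to 0.11. The groups did not overlap for 4 of the 9, beside 26.9% of all tested probes. An exact permutation test of a single probe with 2 arrays a group cannot go below p = 0.333.

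Stat3, the factor of interleukin-6 and interleukin-10 signalling, had the brightest probe of the family, ILMN_2698046. Its normalized log2 signals were 11.83 on isotype 1, 11.90 on isotype 2, 11.83 on OX86 1 and 12.02 on OX86 2. The lowest OX86 array lay between the isotype arrays, so the groups overlapped. The log2 change, OX86 minus isotype, was 0.06 with a standard error of 0.20 and a 95% interval of -0.43 to 0.55, that is a 1.04-fold ratio with bounds of 0.743 and 1.46. Without OX86 2 the change was -0.04.

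The other Stat3 probes leaned the opposite way. Probe ILMN_2589790 gave 10.65 and 11.07 with isotype and 10.55 and 10.59 with OX86, so that both OX86 values lay below both isotype values. Its log2 change of -0.28 (95% interval -0.84 to 0.28) was the largest in size among the 9 tested STAT probes and did not pass. It was -0.07 without isotype 2 and -0.49 without isotype 1. Probe ILMN_3096144 gave 9.11 and 9.38 with isotype and 8.87 and 9.19 with OX86, which overlap, and a change of -0.21 (-0.77 to 0.34), which was -0.05 without OX86 1 and -0.37 without OX86 2. With the 3 probes averaged, the change of Stat3 was -0.14. The probes thus gave no shared direction for Stat3.

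Stat4, which carries interleukin-12 signals, had 2 tested probes, and both were lower in mean with OX86. Probe ILMN_1236059 read 11.58 on isotype 1, 11.42 on isotype 2, 11.31 on OX86 1 and 11.33 on OX86 2. Probe ILMN_2614970 read 10.78, 10.80, 10.64 and 10.69 in the same order. In both probes each OX86 array lay below each isotype array, as 13.1% of all tested probes did. Their log2 changes were -0.18 (95% interval -0.66 to 0.30) and -0.12 (-0.59 to 0.34), and neither passed. The change of ILMN_1236059 was -0.09 without isotype 1 and -0.26 without isotype 2, and that of ILMN_2614970 stayed between -0.14 and -0.10 whichever array was left out.

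The third Stat4 probe, ILMN_2792599, was detected on OX86 2 alone, with a detection p of 0.0363, and its signals of 5.63, 5.14, 5.33 and 5.93 on isotype 1, isotype 2, OX86 1 and OX86 2 were near the floor. No fold is given for it, because the OX86 mean did not exceed the lowest detected signal of the isotype arrays. The 3 Stat4 probes spanned 5.90 in mean log2 signal. Over the arrays, the profiles of the 2 tested ones, each centred on its own mean, differed by a root mean square of 0.07 on the log2 scale. The same measure was 0.30 between the Stat5a probes and at most 0.22 between the Stat3 probes.

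Stat5a, which with Stat5b transmits interleukin-2 signals, varied most between arrays. Its brighter probe, ILMN_2976191, read 9.16 on isotype 1 and 10.06 on isotype 2, and 9.84 and 9.50 on OX86 1 and OX86 2. Both OX86 values lay between the isotype values, whose gap was 0.90 against a gap of 0.34 between the OX86 arrays. The range over arrays was larger than that of 98.5% of the 1738 tested probes within 0.5 of its mean log2 signal. The deposited signals of 1032, 877, 1157 and 1037 on isotype 1, isotype 2, OX86 1 and OX86 2 put isotype 1 above isotype 2, the reverse of the normalized order. Isotype 2 was the dimmest array over all probes, with a median deposited signal of 296 against 316 to 325. At bright probes the gap was wider: the brightest Stat3 probe had 2532 on isotype 2 and 3891 to 5170 on the others. For the Stat5a probe ILMN_2976191, 84.7% of all probes were dimmer on isotype 1 and 90.9% on isotype 2. The log2 change was 0.06 (95% interval -0.79 to 0.90). It was -0.39 without isotype 1, 0.50 without isotype 2, -0.11 without OX86 1 and 0.23 without OX86 2. The part of the array-wide brightness in this spread was not tested.

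The dimmer Stat5a probe, ILMN_2976188, was steady, with 7.83 and 7.98 in the isotype group and 7.98 and 8.05 in the OX86 group. Isotype 2 and OX86 1 both rounded to 7.982, with OX86 1 the lower, so the groups overlapped. Its range over arrays of 0.22 was larger than that of only 9.68% of probes of like brightness. The change was 0.11 (95% interval -0.37 to 0.59), 0.03 without isotype 1 and 0.19 without isotype 2.

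Stat5b, the close relative of Stat5a and its neighbour on the chromosome, was represented by ILMN_2746194. Log2 signals were 5.02 and 5.55 with isotype and 5.01 and 5.11 with OX86, with detection p-values of 0.538, 0.173, 0.586 and 0.451 on isotype 1, isotype 2, OX86 1 and OX86 2. It was not above background in either group, so no fold is given. A single probe that is not detected does not show that the transcript was missing, since Stat6 had a probe that was not detected on any array beside a detected one. Whether Stat5a probes also bind the related Stat5b transcript was not assessed, as the sequences of the probes were not used here.

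Stat6, the factor of interleukin-4 signalling, had the narrowest spread of the family. Probe ILMN_2897230 read 8.53 and 8.46 with isotype and 8.57 and 8.56 with OX86. Both OX86 arrays lay above both isotype arrays, as 13.9% of all tested probes did, by a log2 change of 0.07 (95% interval -0.40 to 0.53). The range over the 4 arrays was 0.11, and only 1.67% of 2096 probes of like brightness had a smaller one. The change was 0.03 without isotype 2 and 0.10 without isotype 1, so it was positive in each fit that left out an array. The second Stat6 probe, ILMN_2593254, was not detected on any array, with log2 signals from 5.23 to 5.59.

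Stat2, the partner of Irf9 in interferon signalling, had 1 probe, ILMN_2657822. It read 7.50 on isotype 1, 7.88 on isotype 2, 7.52 on OX86 1 and 7.62 on OX86 2. Isotype 2 was the highest array and isotype 1 the lowest, so the groups overlapped. The log2 change was -0.12 (95% interval -0.67 to 0.43). It was -0.31 without isotype 1 and turned to 0.07 without isotype 2.

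**Figure D2:**
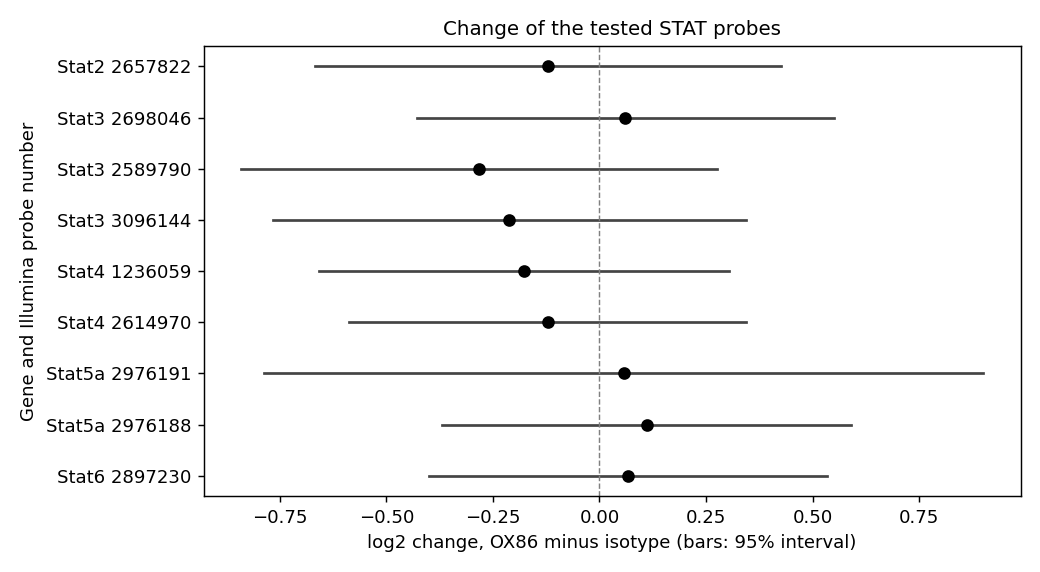
Log2 change of the 9 tested STAT probes (horizontal axis, OX86 minus isotype), with points for the estimate and bars for the 95% interval of the moderated test. Each bar crosses 0, and the Stat5a probe ILMN_2976191 has the widest, from -0.79 to 0.90.

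The 95% intervals give the range of change around each estimate, probe by probe and before any adjustment for the number of probes. For the brightest probes of Stat3, Stat4 and Stat6 the fold ratio of OX86 to isotype had an upper bound of 1.46, 1.23 and 1.45 and a lower bound of 0.743, 0.634 and 0.757. For Stat2 the bounds were 0.629 and 1.34, and for Stat5a 0.579 and 1.87. These bounds are not a limit of detection, since the threshold was applied after adjustment over all tested probes. Ccr8, described further on, had a log2 interval of 0.14 to 1.23 and did not pass. The half-width of the interval over all tested probes had a median of 0.56 on the log2 scale, and the size of the log2 change a median of 0.15.

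**Figure D3:**
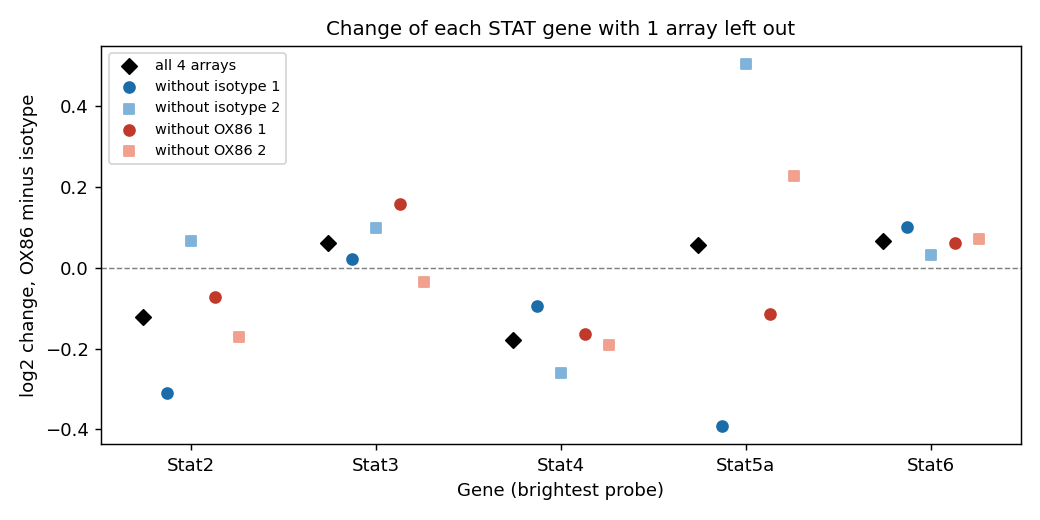
Log2 change (vertical axis, OX86 minus isotype) of the brightest probe of 5 STAT genes, over all 4 arrays (diamonds) and with each array left out in turn (coloured points). Stat4 stays below 0 and Stat6 above 0 throughout, while Stat5a runs from -0.39 to 0.50.

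Among 9356 other tested genes, those with the array profile most like each member were found by the root mean square difference of log2 signals over the 4 arrays, each gene centred on its own mean. Nearest to Stat2 were Eif2d (0.0078) and Ift122 (0.0147). For Stat3 they were Gnptg (0.0063) and Erp29 (0.0111), and for Stat4 Zfp318 (0.0113) and Suz12 (0.0141). Those of Stat6 were Cep95 (0.0053) and Arhgap15 (0.0098). Stat5a had the most distant ones, Ifi202b (0.0285) and Ppil2 (0.0400), the former close to the background. Within 0.1 of the profile lay 48 genes for Stat5a, against 725 for Stat2, 821 for Stat4, 1201 for Stat3 and 1600 for Stat6. Over only 4 arrays such likeness describes these arrays and no more.

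Genes that act before and after the STATs were read from the same fit, each through its brightest tested probe. Over all 9361 tested genes the median log2 change was 0.00, with 4740 higher and 4621 lower in mean, and 0 passed. In every list that follows, 0 members passed in either direction in limma with Benjamini-Hochberg adjustment. The lists were chosen with earlier results of these data known.

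The JAK kinases, which phosphorylate the STATs, were all detected on all 4 arrays. Their median log2 change was -0.06, with 1 higher and 3 lower in mean. Jak1, used by most cytokine receptors, read 11.40 and 10.74 with isotype and 11.32 and 11.24 with OX86, a change of 0.21 (95% interval -0.46 to 0.89). The isotype arrays lay on either side of the OX86 arrays. Jak3, the partner of the common gamma chain, stayed between 8.90 and 8.99 on all arrays and had a change of -0.04 (-0.51 to 0.43). Jak2 had -0.16 (-0.64 to 0.33), with its tested probes of opposite sign, and Tyk2 -0.07 (-0.55 to 0.41).

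Receptor chains that signal through STATs numbered 15 tested of 22 listed, 7 higher and 8 lower in mean, with a median log2 change of -0.01 that was 0.14 without OX86 1 and -0.10 without isotype 1. Il10rb, a chain of the interleukin-10 receptor, had the largest, 0.43 (95% interval -0.16 to 1.02), from 9.67 and 9.18 with isotype to 9.83 and 9.88 with OX86. Isotype 2 was the low array here. Ifnar2, of the type I interferon receptor, had 0.31 (-0.24 to 0.86), and Il21r -0.29 (-0.89 to 0.32), though probes of each differed in sign. The interleukin-2 receptor beta chain Il2rb had 0.06 (-0.60 to 0.72) and the alpha chain Il2ra -0.02 (-0.58 to 0.54). The Il2ra value is uncertain, because the deposited signals of its probe never differed from those of the Il10 probe by more than 1.09%. The common gamma chain Il2rg was not analysed here.

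Cytokine ligands made by the cells themselves were mostly dim. Of 18 listed, 9 were tested, 4 higher and 5 lower in mean. Their median log2 change of -0.01 was -0.33 without isotype 1 and 0.23 without isotype 2. Over all arrays this median is the value of Il10, which is uncertain because its probe read nearly as the Il2ra probe did. Ebi3, a subunit of interleukin-27 and interleukin-35, had 7.36 and 8.25 with isotype and 7.15 and 7.55 with OX86, a change of -0.46 (95% interval -1.31 to 0.40). Osm, the gene of oncostatin M, had -0.20 (-0.70 to 0.31). Il15 had 0.16 (-0.58 to 0.89).

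Inhibitors of the pathway numbered 15 tested of 18, 10 higher and 5 lower in mean, with a median log2 change of 0.03. Cish, an early target of Stat5 that dampens interleukin-2 signals and whose window holds the 2 palindromes printed above, read 10.48 and 10.55 with isotype and 10.59 and 10.64 with OX86. Both OX86 arrays were above both isotype arrays by a change of 0.09 (95% interval -0.38 to 0.56). Socs3, the feedback inhibitor of Stat3 signals, read 9.38 and 9.61 with isotype and 9.03 and 9.43 with OX86, a change of -0.26 (-0.84 to 0.31) with overlapping groups. Socs1 was detected on 2 arrays only and had -0.08 (-0.95 to 0.80). The phosphatase gene Ptpn1 had 0.26 (-0.22 to 0.74) and Pias3, which binds Stat3, -0.24 (-0.72 to 0.23). The groups did not overlap for 6 of the 15, beside 27% of all tested genes. With an array left out, the list median ran from 0.05 to 0.08.

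Nuclear partners were tested for 4 of 6 genes, 1 higher and 3 lower in mean, with a median log2 change of -0.05 that was 0.02 without isotype 2. Irf9, the DNA-binding partner of Stat2, read 9.72 and 10.33 with isotype and 9.56 and 9.73 with OX86. Its change was -0.38 (95% interval -1.04 to 0.28), and both tested probes were lower in mean. As with Stat2, isotype 2 was the highest array. Ndufa13, also described as an inhibitor of Stat3, had 0.12 (-0.35 to 0.59), and the coactivator Ep300 -0.06 (-0.56 to 0.43).

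Interferon-regulated targets of the Stat2 complex were lower in mean for 5 of 5 tested genes of 10 listed, beside 4621 of all 9361 tested genes. Their median log2 change was -0.13. Isg15, a ubiquitin-like modifier whose window holds the 3 overlapping cores printed above, read 8.02 and 8.41 with isotype and 7.51 and 8.00 with OX86. Each OX86 value was below each isotype value, by -0.46 (95% interval -1.12 to 0.19). Usp18, which limits interferon signalling, had -0.13 (-0.69 to 0.42) and Ifit3 -0.16 (-0.85 to 0.53), both with overlapping groups. The remaining tested genes of the list were dim, between 5.83 and 6.66 on the log2 scale, and their groups also overlapped. The median was -0.27 without isotype 2, -0.20 without OX86 2, -0.15 without isotype 1 and -0.12 without OX86 1. With no background correction, or from the authors' values, it was -0.07. Under median scaling it was -0.03, and there the median change of all tested probes was 0.12. The response element core was found in the windows of 5 of the 8 listed genes that had one in RefSeq. Of these, Isg15 and Ifit3 were tested, while Oas1a, Ifit1 and Rsad2 were not. Among the other tested genes, Oasl2 and Irf7 had no core in their windows and Usp18 had no window.

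Targets of the other STATs gave no common direction across the lists. Stat5 targets were tested for 9 of 10 genes, 7 higher and 2 lower in mean, with a median log2 change of 0.08. The survival gene Bcl2 had 0.34 (95% interval -0.19 to 0.86) at its brightest probe, while 2 of its 5 tested probes were higher and the others lower. The kinase gene Pim1 had 0.23 (-0.32 to 0.78). With probes averaged per gene, the Stat5 list had a median of 0.0031, and with an array left out 0.06 to 0.12. Stat3 targets divided evenly, 3 higher and 3 lower, with a median of 0.00, and the AP-1 gene Junb had 0.21 (-0.27 to 0.696) and the transcription factor Maf 0.24 (-0.51 to 1.00). The Stat3 median was 0.22 without isotype 2, -0.13 without isotype 1 and -0.06 without OX86 2.

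Stat4 targets were tested for 3 of 6 genes. In log2 change, the protease gene Furin had 0.14 (95% interval -0.34 to 0.61), the interferon gamma gene Ifng -0.21 (-1.20 to 0.79), with its tested probes of opposite sign, and the interleukin-18 receptor gene Il18r1 0.10 (-0.63 to 0.84). Of Stat6 targets 3 of 5 were tested. The chemokine receptor gene Ccr8 read 9.33 and 9.68 with isotype and 10.28 and 10.10 with OX86, a change of 0.69 (0.14 to 1.23) whose interval leaves out 0, while its adjusted p in limma (Benjamini-Hochberg) was 0.9999 and did not pass. Gata3, the factor of the type 2 helper lineage, had 0.25 (-0.25 to 0.75), and the repressor gene Gfi1 -0.19 (-0.76 to 0.39). Both lists are short. The Stat4 median was 0.10, and it turned to -0.28 without OX86 2 and to -0.12 with no filter on dim probes. The Stat6 median was 0.25, with 0.13 without OX86 2, 0.37 without OX86 1 and 0.04 with no filter.

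Among the regulatory T-cell markers, 5 were higher and 4 lower in mean. The receptor genes Tnfrsf18 and Tnfrsf4 had log2 changes of 0.20 (95% interval -0.39 to 0.79) and 0.15 (-0.32 to 0.63), and the T-cell receptor complex gene Cd3e -0.09 (-0.59 to 0.42). Among markers of other cells, the B-cell gene Ms4a1 was dim and detected on 3 arrays, at 5.79 and 5.15 with isotype and 6.38 and 6.18 with OX86. Its change was 0.81 (0.13 to 1.49), which did not pass after adjustment. The other B-cell genes leaned the opposite way, with -0.26 (-0.96 to 0.43) for Cd79a and -0.16 (-0.76 to 0.43) for Cd79b, whose tested probes differed in sign. Cd8b1 had -0.10 (-0.59 to 0.40) and Hba-a1 -0.35 (-1.71 to 1.00).

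**Figure D4:**
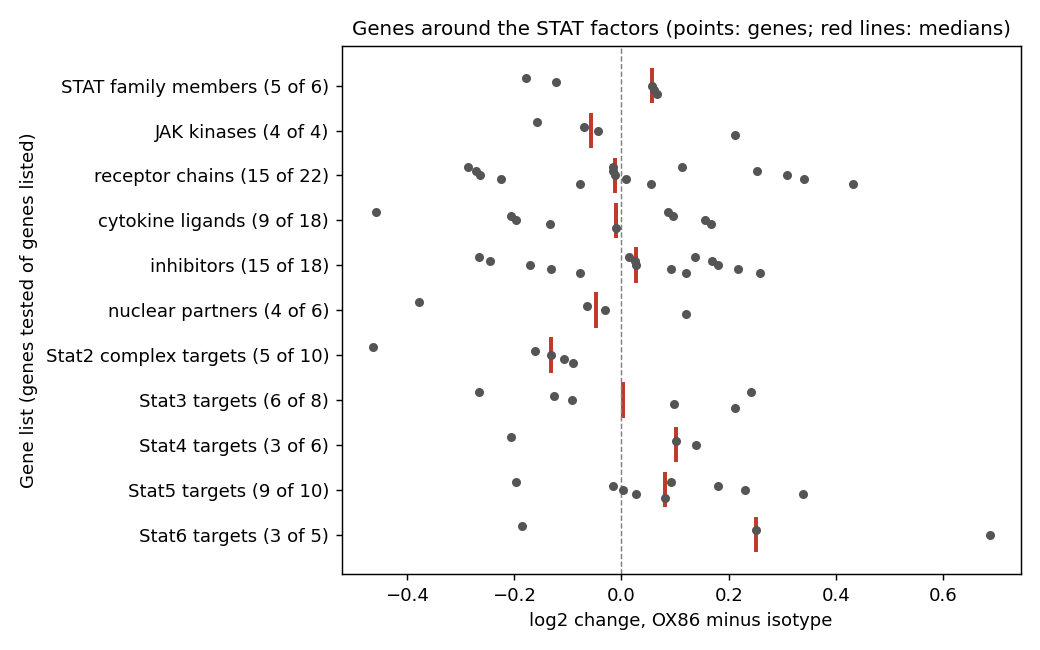
Log2 change (horizontal axis, OX86 minus isotype) of each tested gene in 11 lists (rows), with points for genes and red lines for the list medians. Medians lie between -0.13 for targets of the Stat2 complex and 0.25 for the 3 tested Stat6 targets, and every point but that of Ccr8, at 0.69, lies within 0.5 of 0.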

How the data were processed

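Per the file headers, the authors deposited linear signal intensities and detection p-values of every probe for 4 arrays. The submitters' processing notes name BeadStudio, with settings not given in the sources used here. A second deposited table holds the authors' processed intensities, also linear. Its rank correlation with the first was 1 on each array, and at least 99.98% of values were within 1% of a quantile normalization made here. Column medians were 314.9 (isotype 1), 314.4 (isotype 2), 314.7 (OX86 1) and 314.8 (OX86 2), and neither centring nor a log was apparent. It served as an alternative.

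Normalization used neqc of limma 3.58.1 in R 4.3.3 (background from the detection p-values, offset 16, quantile normalization, log2). Probes with detection p under 0.05 on at least 2 of 4 arrays were tested (13338) with lmFit and eBayes, two-sided, with no covariate and Benjamini-Hochberg adjustment over all of them. Residual degrees of freedom were 2 and prior degrees of freedom 3.68. The calculation was tested on simulated data. Arrays were grouped by their labels. All lay on 1 slide, per the labels, and precision is limited by how few they are. Gene names came from the platform annotation (23978 probes with 1 symbol, 0 with several, 1719 with none). By Entrez number 23962 probes matched RefSeq (GRCm38.p6) and 0 symbols were updated.

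All probes of the 6 genes are named. For each list, the up to 3 tested genes with the smallest unadjusted p are named, with Cish, Socs1, Socs3, Jak1, Jak3, Il2ra, Il2rb and Il2rg whatever their result, and for each member the 2 genes of most similar profile. Genes with several probes are read through the brightest. The members and lists were chosen with earlier results of these data known. Alternatives were no background correction, median scaling, other detection filters, the authors' values, probes averaged per gene, the replicate number as a block, and leaving out each array.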

Additional observations from a re-analysis of the deposited data

How the results depend on the processing

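By limma with Benjamini-Hochberg adjustment, 0 probes passed under each of 11 alternatives, STAT probes included, with 102 (median scaling) to 1540 (without isotype 1) probes, of which 0 STAT probes, at an unadjusted p under 0.05. In the fit over all arrays that count was 444. The smallest adjusted p of a STAT probe was 0.4909, without isotype 1, and at least 0.9997 otherwise. The log2 change of Stat4 was negative (-0.26 to -0.09 with an array left out) and that of Stat6 positive (0.03 to 0.10) under each alternative, except that the dimmer Stat4 probe had 0.0054 under median scaling. The sign turned for Stat2 (0.021 under median scaling), for Stat3 (-0.14 with probes averaged) and, with an array left out, for Stat2 (-0.31 to 0.068), Stat3 (-0.035 to 0.16) and Stat5a (-0.39 to 0.50, -0.11 without OX86 1). In fits without an array the lone array of a group was assumed to vary like the others. Median scaling moved the median change of all tested probes to 0.12, and relative to that shift all 9 STAT probes kept their sign, with Stat2 at -0.10 and the dimmer Stat4 probe at -0.11. The labels number replicates alike in both groups without naming a shared source, and over tested probes the deviations of same-numbered arrays correlated at 0.066. With the replicate block, 0 probes passed, 522 had an unadjusted p under 0.05, and the log2 changes of the STAT probes were as without it. Under the alternatives, 29 values of list medians moved by more than the spread between arrays. The causes of these shifts were not tested. Probes near the background and the number of arrays limit what could be detected.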
